A study of Drosophila melanogaster with 5 samples.

Results

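The Imd pathway genes of *D. melanogaster* S2 cells were described here through the translated ORFs that ribosome profiling found in them. The members were 10 genes listed by name for their place in the pathway, namely PGRP-LC, PGRP-LE, imd, Fadd, Dredd, Tak1, Tab2, key, IKKbeta and Rel. An ORF was given to a member where it lay within that gene's span and within the span of no other protein-coding gene. By this rule 7 of the 10 members had an ORF in at least 1 list, with 45 of the 23277 different ORFs of the series. PGRP-LE had no ORF in any list. Fadd and Rel had an ORF in all 5 lists, but the span of Fadd overlaps that of pit and the span of Rel overlaps that of Nmdmc, which put their ORFs outside the rule. In each list where a member had an ORF, no other ORF had an exon within that member's span. The values of Fadd and Rel are therefore given here beside the others and are named as outside the rule in the counts.

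The Imd pathway is the arm of fly innate immunity that responds to peptidoglycan of the diaminopimelic acid type, which Gram-negative bacteria carry. Receptors of the PGRP family gather the adaptor Imd, the adaptor Fadd and the caspase Dredd, which cleaves Imd. Ubiquitin chains built on Imd then bring in the kinase Tak1 with Tab2 and the IKK complex, and the NF-kB factor Relish, encoded by Rel, is cleaved and moves to the nucleus to switch on antimicrobial peptide genes. S2 cells, a line derived from late embryos with properties of hemocytes, are widely used to study this signalling.

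Ribo-Seq was performed on S2 cells with no immune stimulus among the labels. The 4 standard samples were A-RNaseI (an RNase I from Ambion) in Buffer 1 and E-RNaseI (an RNase I from Thermo Fisher) in Buffer 2, each from cells incubated for 3 min with cycloheximide (CHX), which arrests elongating ribosomes, and from cells left untreated. Lists are named treated or untreated after this incubation. A further sample of E-RNaseI in Buffer 2 from untreated cells was sequenced deeper, and is called the deep list. Each condition was 1 sample of 1 cell line, so that no difference could be set against a spread between replicates, and no test was run.

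All groups shared cycloheximide in the wash and lysis solutions, the untreated cells included. By the labels, Tris was at 50 mM in Buffer 1 and at 100 mM in Buffer 2, NaCl at 150 mM and 50 mM, and MgCl2 at 10 mM in each. The methods give a lower NaCl concentration for Buffer 2 than the labels. RNase and buffer always changed together and cannot be told apart. The read lengths from which ORFs were called also differed between the standard lists.

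The unit throughout is the P-site, the position in the ribosome that a footprint is assigned to, as the count listed for an ORF. A gene is represented by its ORF with the most P-sites, since ORFs on different transcripts of a gene share footprints. Levels between genes are compared only as P-sites per 100 nt of the called ORF. Intervals are exact 95% intervals (Poisson for a count, Clopper-Pearson for a ratio) and cover counting error only. A gene with no called ORF has no value in that list, which is not a value of 0.

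The lists held 6621 to 10503 ORFs in the standard samples and 12048 in the deep list. P-sites on the 1544 ORFs common to all 5 lists numbered 297407 to 912070 in the standard lists and 4217322 in the deep list. Of the 10 plasmatocyte markers, srp, Pxn, crq and ush had an ORF in all 5 lists, and NimC1 and Ppn in none. Of the other 4, eater was called in the deep list at the 55.5th percentile of genes, and Hml, vkg and Col4a1 in 1 to 3 lists at or below the 4.37th. None of the 4 fat body markers had an ORF. Of the 4 germline markers, aub had an ORF in all 5 lists. An ORF within the shared span of vas, solo and vig was also called in all 5, and cannot be given to vas alone. The ORF of bam was called only in the untreated E-RNaseI list and the deep list, at the 7.63rd and 6.96th percentile. The marker nos was not found by name among the annotated genes. Of the neuron and muscle markers only elav, in a span shared with arg, and Mef2 had one in any list.

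Most of the signalling core was detected. By the rule, an ORF was called for 6 of 10 members in the treated A-RNaseI list, for 7 in the treated E-RNaseI list, for 5 in the untreated A-RNaseI list, and for 7 both in the untreated E-RNaseI list and in the deep list. Counted with Fadd and Rel these numbers were 8, 9, 7, 9 and 9. Over all 13962 protein-coding genes, an ORF was called by the same rule for 31.0%, 40.1%, 27.7%, 34.4% and 43.8% in the same order, so the members rose with all genes from A-RNaseI to E-RNaseI. With at least 20 P-sites required, 3 members by the rule had an ORF in each untreated standard list. The share of all genes at this limit was not computed, so this count does not set the members apart. The members missing from single lists were Tak1 in the treated A-RNaseI list, and imd and Dredd in the untreated A-RNaseI list.

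**Figure D1:**
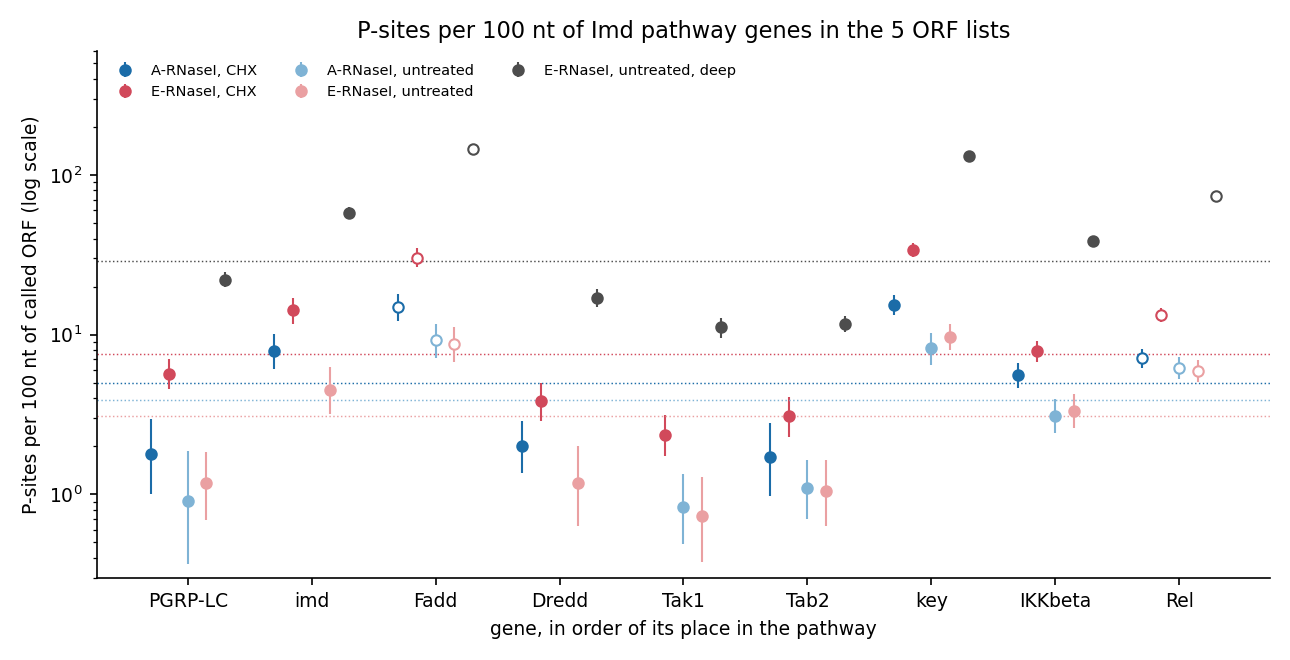
P-sites per 100 nt of the called ORF (log scale) of each gene in each of the 5 lists, with exact Poisson 95% intervals. Open circles are Fadd and Rel, whose spans overlap a second gene, dotted lines are the median over all genes of each list, and a missing point means that no ORF was called. Fadd and key stand highest in every list, and Tak1 stands lowest wherever it was called, with an interval that meets that of the next gene.

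The members spread over more than an order of magnitude in ribosome occupancy. In the deep list, Fadd had 146 P-sites per 100 nt (interval 138 to 155) and key 132 (125 to 139), and these intervals met. Rel followed with 74.2, imd with 57.9, IKKbeta with 38.6, PGRP-LC with 22.1 and Dredd with 17.0, each apart from its neighbours by more than counting error. Tab2 with 11.7 and Tak1 with 11.1 came last and were not distinguishable from each other. The median over the 6110 genes of the deep list was 28.8, so that the adaptors, the IKK subunits and Rel lay above it, and the receptor, the caspase, the kinase and its partner lay below it.

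In 3 of the 4 standard lists, the adaptors, the IKK subunits and Rel that were called again lay above the other members by more than counting error, although IKKbeta was below the median of all genes in the untreated A-RNaseI list. In the treated A-RNaseI list, IKKbeta, the lowest of this upper group, had 5.58 P-sites per 100 nt (4.63 to 6.67) and Dredd, the highest of the lower group, had 2.02 (1.37 to 2.89). In the untreated lists IKKbeta had 3.11 with A-RNaseI, where Tab2 led the lower group with 1.10, and 3.35 with E-RNaseI, where Dredd led it with 1.18. In the treated E-RNaseI list the gap closed, since the interval of IKKbeta (7.86, from 6.72 to 9.13) met that of PGRP-LC (5.69, from 4.54 to 7.05). Within the lower group, neighbours in the order were not distinguishable in any standard list.

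PGRP-LC encodes the transmembrane receptor of the pathway, and PGRP-LE a receptor of the same family that acts inside the cell. PGRP-LC, at chromosome 3L from 9338810 to 9348336 (Release 6), had 15 P-sites in the treated A-RNaseI list and 84 in the treated E-RNaseI list, 7 and 18 in the untreated ones, and 326 in the deep list. It was at or below the 42.5th percentile of genes in each list, and its 7 P-sites in the untreated A-RNaseI list were the fewest of any member. PGRP-LE, on the X chromosome from 15801153 to 15803880, is the only member for which no footprint count exists in these lists.

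The PGRP-LC locus is known to give rise to several receptors that share one intracellular part and differ in the extracellular part, and its ORFs ended at 4 different stop codons. All 4 were called in the treated E-RNaseI list, with 84, 71, 72 and 77 P-sites in 5′ to 3′ order of the stop codons. The deep list also held all 4, with 326, 253, 254 and 312 P-sites. ORFs with different 3′ ends have 5′ exons in common, and a footprint there counts for each of them, so these numbers are not independent measurements of 4 receptors.

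In each of the other lists, PGRP-LC ended at 1 stop codon only. The most 3′ stop codon, at position 9348174, was the one called in the treated A-RNaseI list, with 15 P-sites over 280 codons, and in the untreated E-RNaseI list, with 18 P-sites over 512 codons. The most 5′ one, at position 9346207, was called in the untreated A-RNaseI list, with 7 P-sites over 258 codons. The receptor form that was called thus differed between these 3 lists, which held 7 to 18 P-sites of the gene each.

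The stretch of PGRP-LC that was called also differed. Both lists of A-RNaseI began the ORF at positions 9344475 and 9344538, whereas the ORF with the most P-sites in each list of E-RNaseI, the deep list included, began at 9342353. The lists of A-RNaseI therefore hold no count for the stretch before these positions. The ORFs that represent PGRP-LC in the ratios between the RNases are therefore different stretches of the gene. One identical ORF of 258 codons, on the transcript FBtr0300291, was listed with 7 P-sites in the untreated A-RNaseI list, 31 in the treated E-RNaseI list and 128 in the deep list.

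imd encodes the death-domain adaptor that gives the pathway its name. Its ORF of 273 codons on chromosome 2R, from 18410175 to 18411409, had 65 P-sites in the treated A-RNaseI list, 116 and 37 in the treated and untreated E-RNaseI lists, and 474 in the deep list. These put it at the 61.5th to 67.6th percentile of genes. The start codon was the same in all 4 lists that called it.

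Fadd encodes the adaptor that joins Imd to Dredd through a death domain and a death effector domain. Its ORF of 239 codons on chromosome 3R, from 22034564 to 22035281, had 106 (A-RNaseI) and 218 (E-RNaseI) P-sites in the treated lists, 66 and 63 in the untreated lists, and 1049 in the deep list. Fadd was the only member whose ORF was identical from start to stop codon in all 5 lists. Of the 3842 stop codons found in all 5 lists, 29.0% had 1 start codon throughout.

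Dredd encodes the caspase of the pathway, which cleaves Imd and is required for the cleavage of Relish. It had 30 P-sites in the treated A-RNaseI list, 54 and 13 in the treated and untreated E-RNaseI lists, and 252 in the deep list. Its main stop codon lay at position 633709 of the X chromosome, and a second one at 634528 ended an ORF of 284 codons with 19 P-sites in the treated A-RNaseI list and with 120 in the deep list. The second one was also called in the untreated E-RNaseI list, with 6 P-sites over 260 codons, the lowest count that any list holds. A further stop codon at 635192 was called in the deep list alone and ended an ORF of 69 codons with 45 P-sites. Dredd lay below the median of all genes in each of the 4 lists.

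Both imd and Dredd had an ORF in the other 4 lists and none in the untreated A-RNaseI list. Scaled to the depth of that list, the other lists correspond to 36.1 to 45.8 P-sites for imd and to 14.0 to 21.2 for Dredd. PGRP-LC and Tak1, with 7 and 17 P-sites, were called there. Of the 3950 genes with an ORF in the other 4 lists, 16.8% had none in this one, and the part of P-site number, periodicity or read length in the missing calls was not tested.

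Tak1 encodes the MAP3 kinase that phosphorylates the IKK complex and also feeds the JNK branch. It had 48 P-sites in the treated E-RNaseI list, 17 (A-RNaseI) and 12 (E-RNaseI) in the untreated lists, and 182 in the deep list. Wherever it was called it had the lowest density of the members, though not distinguishable from the next, at the 9.11th to the 24.7th percentile of genes. Tak1 also held the only uORF of any member, 7 codons long, on chromosome X from 20524868 to 20524887. This uORF was called in the deep list alone, with 18 P-sites.

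Tab2 encodes the partner of Tak1 that binds ubiquitin chains. Its P-sites numbered 16 (A-RNaseI) and 51 (E-RNaseI) in the treated lists, 23 and 19 in the untreated lists, and 289 in the deep list. Its percentile ran from 13.7 to 25.8. Its ORFs ended at a pair of stop codons, at positions 19303632 and 19304251 of chromosome 2R, whose P-site numbers were the same in every standard list and 289 and 284 in the deep list.

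The IKK complex was represented by both of its subunits. key encodes the regulatory subunit, the fly counterpart of IKK gamma, and had 179 (A-RNaseI) and 396 (E-RNaseI) P-sites in the treated lists, 76 and 113 in the untreated lists, and 1540 in the deep list. IKKbeta encodes the catalytic subunit and had 120, 169, 67, 68 and 830 P-sites in the same order. In P-sites per 100 nt, key was higher than IKKbeta in every list, with 15.3 against 5.58, 33.9 against 7.86, 8.23 against 3.11, 9.68 against 3.35 and 132 against 38.6, and the intervals of the pair did not meet in any of them. key lay between the 71.0th and 84.6th percentile of genes and IKKbeta between the 42.9th and 57.6th.

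Rel encodes Relish, an NF-kB protein that carries its own inhibitory ankyrin part until it is cleaved. Its P-sites numbered 208 (A-RNaseI) and 388 (E-RNaseI) in the treated lists, 159 and 153 in the untreated lists, and 2160 in the deep list, the most of any member. Divided by the ORF called in each list this was 7.14, 13.3, 6.18, 5.95 and 74.2 P-sites per 100 nt, at the 60.3rd to the 72.9th percentile. Rel and Fadd, both outside the rule, had an ORF in all 5 lists, as did PGRP-LC, Tab2, key and IKKbeta by the rule.

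To compare conditions, ratios of P-sites were divided by the ratio of P-sites on the common ORFs. These depth ratios were 2.005 for E-RNaseI over A-RNaseI in treated cells and 0.9272 in untreated cells, and 1.418 for treated over untreated cells with A-RNaseI and 3.067 with E-RNaseI. Each standard list enters a pair of these comparisons, so they are not independent of each other.

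**Figure D2:**
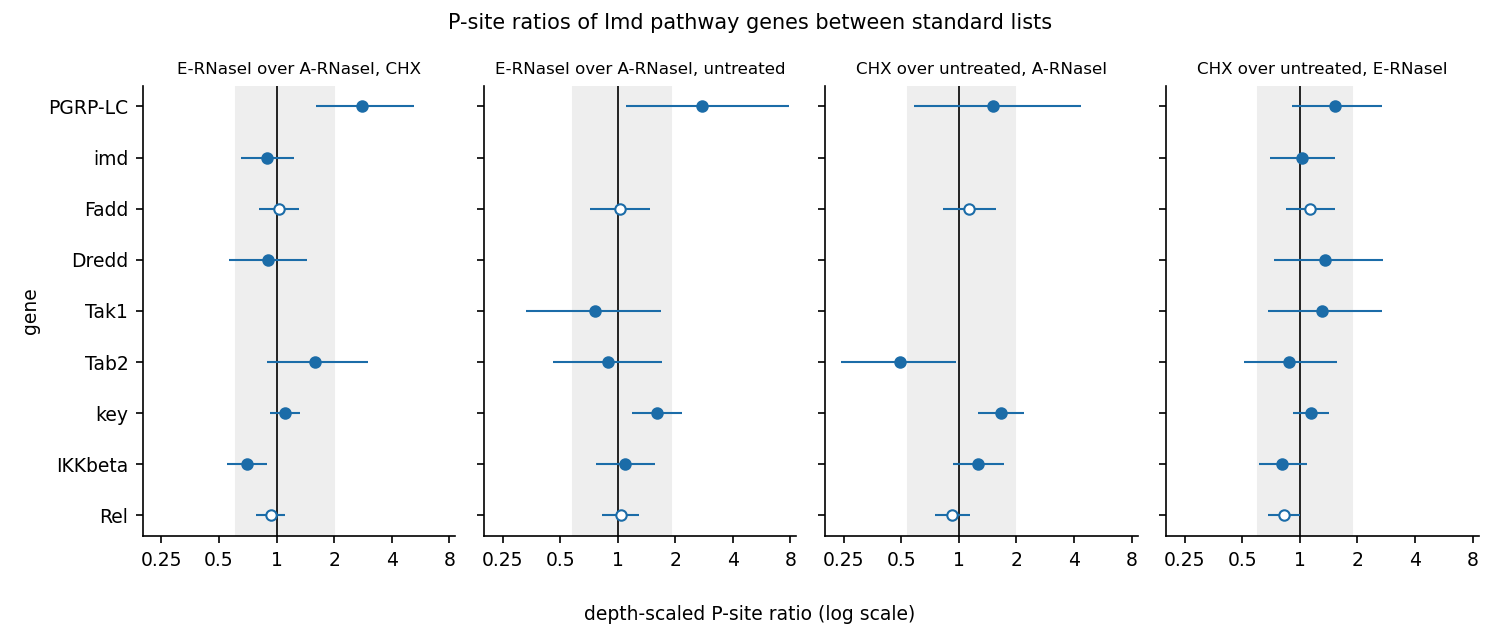
Depth-scaled P-site ratio (log scale) of each gene with an ORF in both lists of a pair, with exact 95% intervals from counting error. Open circles are Fadd and Rel and the grey band is the range from the 5th to the 95th percentile of all genes. PGRP-LC lies beyond the band in both comparisons of E-RNaseI with A-RNaseI, Tab2 lies below it in treated over untreated cells with A-RNaseI, and the other genes lie within it.

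Between the RNases, PGRP-LC was the member that stood apart. Its scaled ratio of E-RNaseI over A-RNaseI was 2.79 (1.60 to 5.21) in treated cells and 2.77 (1.11 to 7.86) in untreated cells. It was the 1 of 6 members by the rule past 2-fold higher in treated cells, beside 4.89% of all 4271 genes, and the 1 of 5 in untreated cells, beside 4.13% of 3655 genes. No member was past 2-fold lower, beside 2.11% and 2.57% of all genes.

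The excess of PGRP-LC came with a longer called ORF in the E-RNaseI lists. Both ratios set an ORF of 492 or 512 codons against one of 280 or 258. Per nt of the called ORF the ratios were 1.59 and 1.40. The transcript FBtr0472541 was called in both treated lists with the same stop codon. It had 15 P-sites over 280 codons (A-RNaseI) and 24 over 259 codons (E-RNaseI). The ratio for this transcript was 0.798, and no interval was computed for it. No PGRP-LC transcript with the same stop codon was called in both untreated lists.

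IKKbeta was the other member whose interval excluded 1 between the RNases in treated cells, with a scaled ratio of 0.702 (0.553 to 0.895) over an identical ORF of 717 codons. In untreated cells its ratio was 1.09 (0.770 to 1.56). key had a ratio of 1.10 (0.923 to 1.32) in treated and of 1.60 (1.19 to 2.17) in untreated cells, the latter with a shorter ORF for A-RNaseI. PGRP-LC was thus the only member whose interval excluded 1 in both comparisons of the RNases. Fadd, with 1.03 in each comparison, and Rel, with 0.930 and 1.04, were close to the depth ratio in both.

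Between treated and untreated cells with A-RNaseI, Tab2 had a scaled ratio of 0.491 (0.242 to 0.970) and was the 1 of 4 members by the rule past 2-fold lower, beside 3.99% of 3409 genes. None was past 2-fold higher, beside 4.84%. The called ORF of Tab2 was 312 codons long in the treated and 698 in the untreated list, and per nt the ratio was 1.10, on the other side of 1. key had a ratio of 1.66 (1.26 to 2.20), again against the shorter ORF of the untreated list. The ratios of PGRP-LC, Fadd, IKKbeta and Rel had intervals that included 1. That of Rel, 0.922 (0.747 to 1.14), set 971 codons in the treated list against 857 in the untreated list, and per nt it was 0.814. The same 857 codons held 171 P-sites in the treated list, on another transcript, and 159 in the untreated list, before scaling. Scaled by the depth ratio of 1.418, these codons were lower in the treated list, and no interval was computed for them.

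With E-RNaseI, the members were close to the depth ratio between treated and untreated cells. All 9 detected members had scaled ratios between 0.810, for IKKbeta, and 1.52, for PGRP-LC. None of the 7 members by the rule was past 2-fold, beside 3.71% of 4721 genes higher and 2.39% lower. No interval excluded 1, that of Rel reaching from 0.684 to 1.00. The ratio of Rel set 971 codons in the treated list against 857 in the untreated list, and per nt it was 0.73. The same 857 codons held 331 P-sites in the treated list, on another transcript, and 153 in the untreated list, before scaling. Scaled by the depth ratio of 3.067, these codons were lower in the treated list, and no interval was computed for them. For the least covered genes the intervals were wide, with Tak1 at 1.30 (0.683 to 2.70) and Dredd at 1.35 (0.729 to 2.71). A 2-fold difference was thus not excluded for them at this depth.

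The deep list against the standard list of the same condition gives the nearest thing to a repeat, though the sources do not say whether both came from the same library. At a depth ratio of 14.18, the scaled ratios of the 9 detected members ran from 0.861 for IKKbeta to 1.37 for Dredd, and every interval included 1. None of 7 by the rule was past 2-fold higher, beside 2.12% of 4802 genes, or lower, beside 0.458%.

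**Figure D3:**
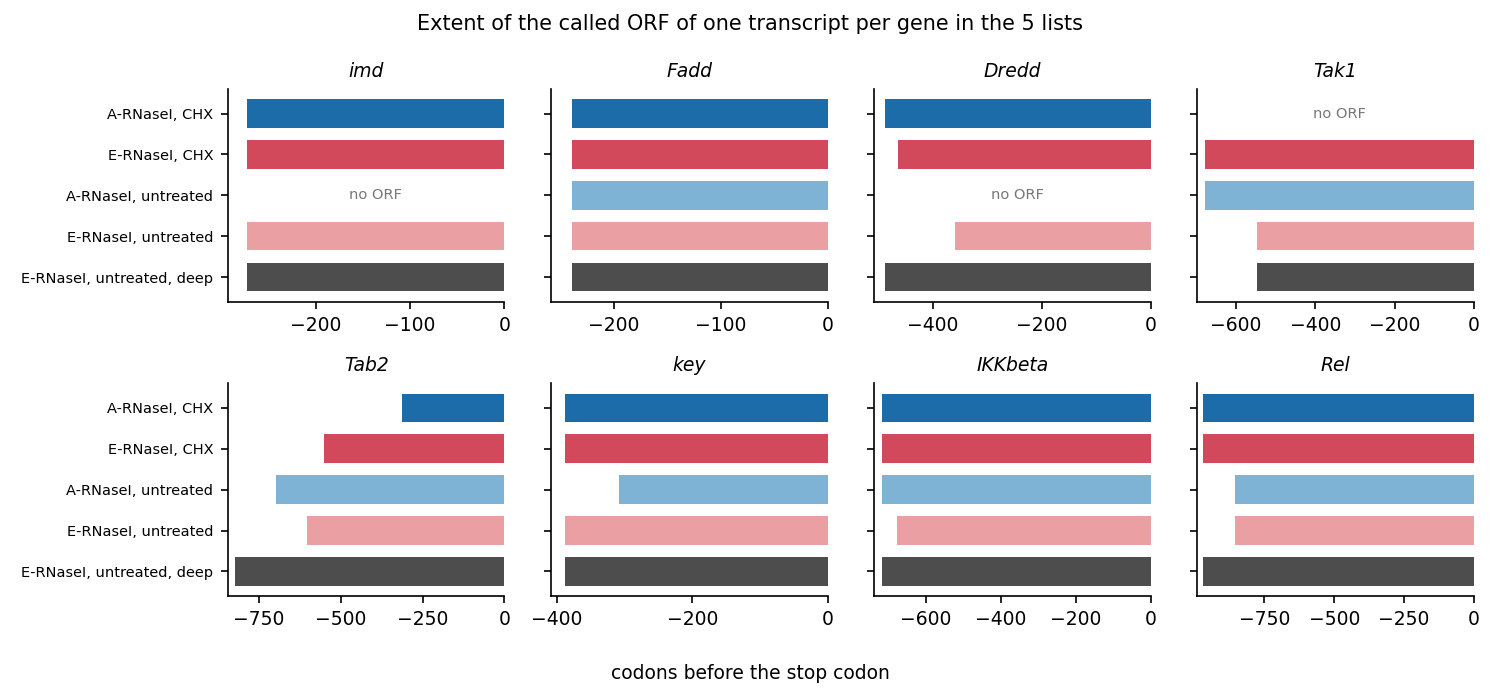
Extent of the called ORF of 1 transcript for each of 8 genes in the 5 lists, as codons before the stop codon. Bars of equal length share a start codon, and lists with no call are marked. Fadd and imd have 1 length throughout, and Tab2 has a different length in each list.

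The start codon, in contrast to the level, often differed between lists. RiboTaper takes the most upstream in-frame ATG with enough P-sites before the next ATG, so an ORF is listed shorter where its 5′ part holds few P-sites. Between the RNases, the start codon differed for 4 of 7 stop codons of members by the rule in treated cells, beside 43.1% of all stop codons, and for 5 of 5 in untreated cells, beside 48.8%. Between treated and untreated cells it differed for 3 of 4 with A-RNaseI, beside 54.0%, and for 5 of 8 with E-RNaseI, beside 47.1%. Between the deep and the standard list it differed for 5 of 9, beside 47.4%, and all 5 lay further upstream in the deep list, as did 86.4% of those that differed over all genes. Counts of 4 to 9 stop codons are too few to set the members apart from other genes, and Tab2 enters each of them with both of its stop codons.

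Tab2 was the extreme case, with 5 different start codons in 5 lists. From the transcript FBtr0086516, its ORF was 312 (A-RNaseI) and 552 (E-RNaseI) codons long in the treated lists, 698 and 604 in the untreated lists, and 825 in the deep list. Such a pattern was found for 2.37% of the 3842 stop codons present in all lists. In the standard lists, these ORFs rested on 16 to 51 P-sites.

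For Tak1, the length did not follow the number of P-sites over all lists. Its ORF was 678 codons long in the treated E-RNaseI and untreated A-RNaseI lists, and 548 in the untreated E-RNaseI list and the deep list. The longer ORF had 48 and 17 P-sites in these lists, and the shorter one 12 in the untreated E-RNaseI list and 182 in the deep list. For Dredd, the ORF of the transcript FBtr0114559 was 488 codons long in the treated A-RNaseI list and in the deep list, and 464 and 360 in the treated and untreated E-RNaseI lists.

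Each of key, IKKbeta and Rel had a pair of start codons. key had 389 codons in 4 lists and 308 in the untreated A-RNaseI list. IKKbeta had 717 codons in 4 lists and 677 in the untreated E-RNaseI list. Rel had 971 codons in both treated lists and in the deep list, and 857 in both untreated standard lists.

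For Rel, Tak1, Dredd and PGRP-LC, lists also held a shorter ORF of another transcript that lay wholly within a longer one and shared its exons and its stop codon. The difference in P-sites between long and short ORF gives the count of the 5′ stretch alone. This comparison was added after the values were seen. Footprints from mRNAs that hold only the shorter ORF cannot be told apart from those of the longer one. In PGRP-LC and Dredd, ORFs that end at other stop codons share part of the 5′ stretch. Their footprints can count there and not in the shorter ORF, and their part in the ratios was not tested.

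In Rel, the first 114 codons held 37 of 208 P-sites in the treated A-RNaseI list, 57 of 388 in the treated E-RNaseI list, and 188 of 2160 in the untreated deep list. Per nt, the 5′ stretch was 1.63 times as dense as the remaining 857 codons (1.11 to 2.33) in the first of these, 1.29 times as dense (0.960 to 1.72) in the second and 0.717 times as dense (0.614 to 0.833) in the deep list. The intervals of both treated lists lay above that of the untreated deep list. The 5′ stretch is the one that both standard lists from untreated cells left out of the called ORF.

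In Tak1, the last 217 codons held 17 of 48 P-sites in the treated E-RNaseI list and 120 of 182 in the untreated deep list. The 461 codons before them in the treated list were 0.858 times as dense (0.461 to 1.65), and the 331 codons before them in the deep list 0.339 times as dense (0.245 to 0.464). These intervals met only at their ends, and the 5′ stretches were not the same in both lists.

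For Dredd and PGRP-LC, the ratios of the deep list lay within the intervals of the treated lists. In Dredd, the stretch before the last 189 codons of the transcript FBtr0114560 was 0.780 times as dense as these codons in the treated E-RNaseI list (0.441 to 1.39) and 0.775 times as dense in the deep list (0.600 to 1.00). Its first 54 codons were 2.48 times as dense as the remaining 440 in the treated A-RNaseI list (0.899 to 5.97) and 1.72 times as dense in the deep list (1.22 to 2.40). In PGRP-LC, the 5′ stretch of the longest ORF was 2.32 times as dense as the last 84 codons in the treated E-RNaseI list (1.02 to 6.54), with 6 P-sites in the latter, and 2.04 times as dense as the last 80 codons in the deep list (1.36 to 3.17). A further pair of Dredd, of 440 and 189 codons, gave 0.645 (0.486 to 0.855) in the deep list. In that list the ratio was thus below 1 for Rel and Tak1 and above 1 for PGRP-LC. That of Dredd changed with the pair of ORFs, and its pairs against 189 codons had intervals that met that of Rel. The stretches compared differed in length, and genes other than the members were not examined in this way.

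**Figure D4:**
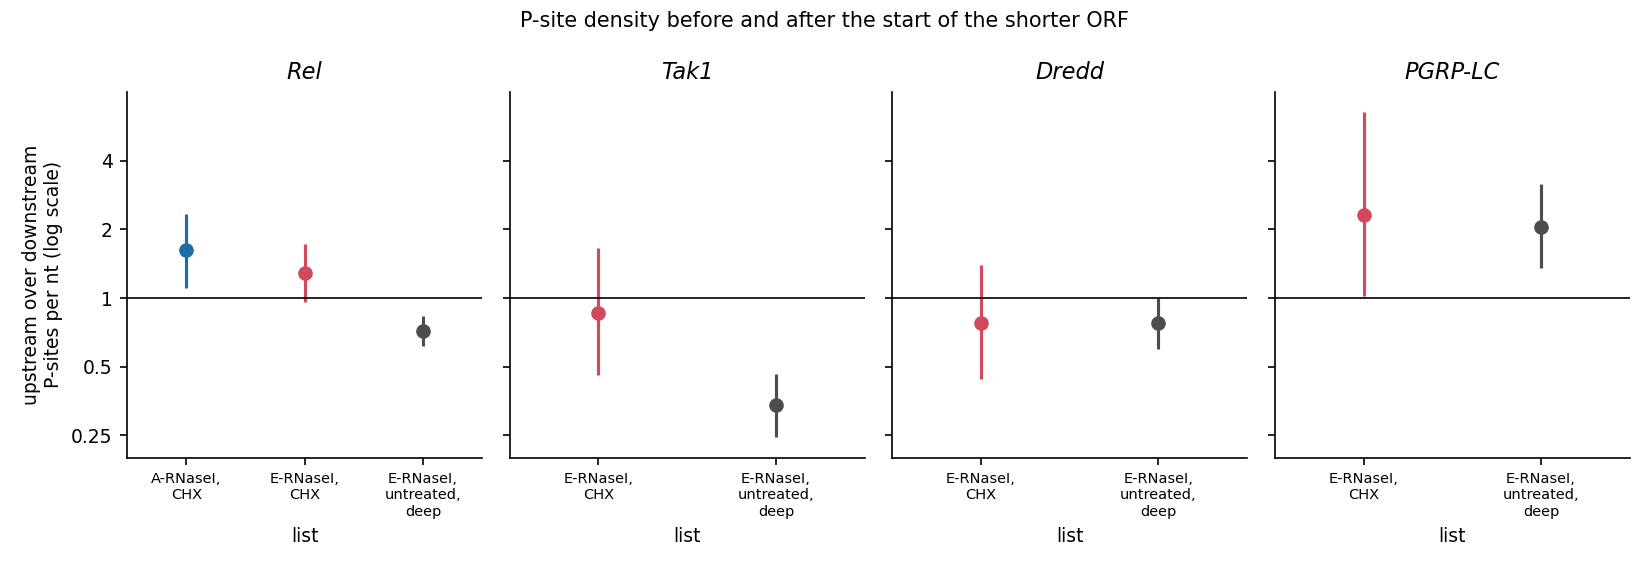
P-site density per nt of the 5′ stretch over that of the shorter ORF (log scale) for Rel, Tak1, Dredd and PGRP-LC in lists that called both ORFs, with exact 95% intervals from counting error. For Dredd, the pair shown is the ORF of the transcript FBtr0114560 and the ORF of 189 codons. In the deep list the ratio lies below 1 for Rel and Tak1 and above 1 for PGRP-LC, and for Dredd its interval reaches 1.

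The genes that act around the members were read from further lists. Of 7 ubiquitin and cofactor genes, an ORF was called for 6, 7, 5, 6 and 7 in the order of lists used above. For this and each further gene list, the share of all protein-coding genes was 31.0%, 40.1%, 27.7%, 34.4% and 43.8% in that order. The ubiquitin genes eff, ben and Uev1A were far above the signalling core, with 1080, 585 and 451 P-sites per 100 nt in the deep list. Each lay at or above the 88.4th percentile in every list. The cofactor akirin, with 198 in the deep list, was also above all members there and had no ORF in the untreated A-RNaseI list. Diap2, the ubiquitin ligase that modifies Imd, was near Dredd, with 16.9 in the deep list and 1.07 to 5.29 in the standard lists. Charon, a nuclear cofactor of Rel, had 38.4 in the deep list.

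Of 12 negative regulators, 4, 6, 5, 6 and 6 had an ORF, beside 31.0%, 40.1%, 27.7%, 34.4% and 43.8% of all protein-coding genes. casp, a Fas-associated factor that holds Dredd in check, was the highest with 68.4 P-sites per 100 nt in the deep list and 4.12 to 15.5 in the standard lists. The deubiquitinases CYLD and scny had 31.5 and 20.5 in the deep list, and POSH, a ubiquitin ligase that acts on Tak1, had 9.63. PGRP-LF, a receptor-like inhibitor of PGRP-LC, had 21.7 in the deep list, close to the 22.1 of PGRP-LC, and an ORF in both E-RNaseI conditions but in neither of A-RNaseI. PGRP-LB, PGRP-SC1a, PGRP-SC1b, PGRP-SC2, pirk and dnr1 had no ORF in any list.

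Of 4 other recognition genes, 2, 2, 1, 1 and 2 had an ORF by the rule. PGRP-SA, which acts in the Toll pathway, was called in all 5 lists, with 63.5 P-sites per 100 nt in the deep list. PGRP-LD, with 41.9, and PGRP-SD, with 40.1, shared their spans with Pmi and CG32373. PGRP-SA was thus denser than PGRP-LC in the deep list and in every standard list, where it had 4.93 to 13.5.

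All 6 genes of the JNK branch, which leaves the pathway at Tak1, had an ORF in all 5 lists. In the deep list, kay, a Fos factor, had 432 P-sites per 100 nt and Jra, the Jun factor, had 118. The kinases bsk, Mkk4 and hep had 77.9, 52.8 and 7.70, and the phosphatase puc had 34.4. The kinase of this branch nearest to Tak1 in its level was hep, with 0.596 to 2.24 in the standard lists.

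**Figure D5:**
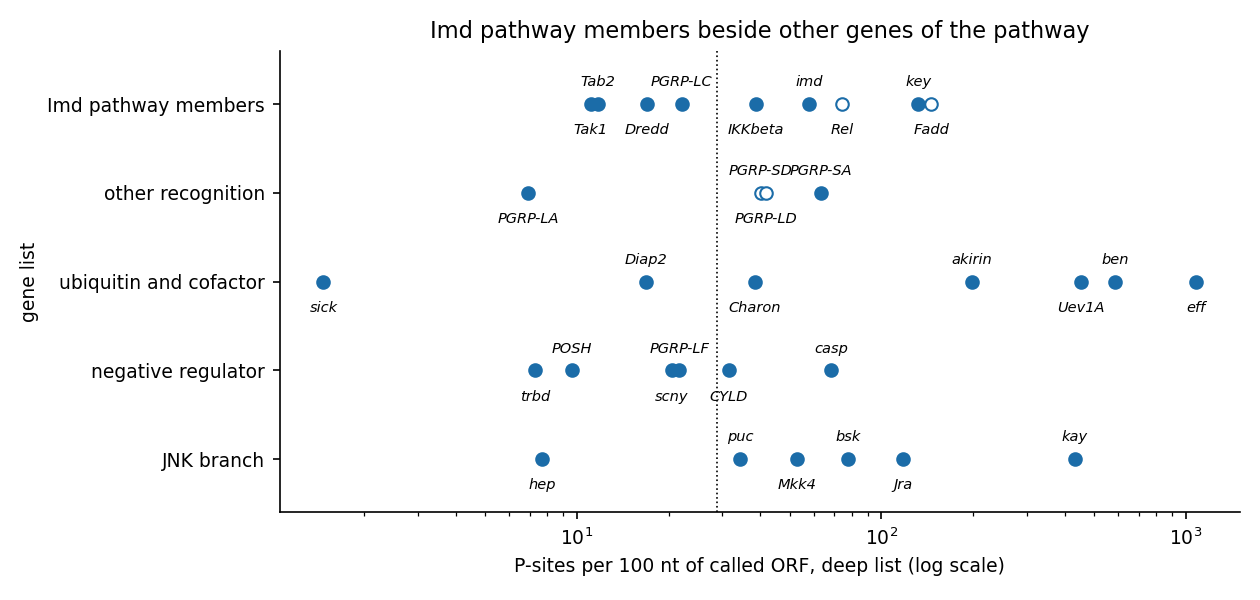
P-sites per 100 nt of the called ORF in the deep list (log scale) for the Imd pathway members and for 4 further lists of pathway genes. Open circles are genes whose span overlaps a second gene and the dotted line is the median of all genes. The members lie between 11.1 and 146, eff, ben, Uev1A, akirin and kay above them, and no antimicrobial peptide gene has an ORF in this list.

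The antimicrobial peptide genes, the targets of Relish, were nearly absent from the lists. Of 13 such genes (AttA to AttD, CecA1, CecA2, CecB, CecC, DptA, DptB, Dro, Def and Mtk), none had an ORF in 4 of the 5 lists, the deep list included. The exception was CecA1, with 10 P-sites over 189 nt in the treated E-RNaseI list. Rel itself had 388 P-sites in the same list. By the methods, ORFs with more than a set share of coverage from multimapping reads alone were removed. The part of this filter and of short ORF length in the missing calls was not tested.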

How the data were processed

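Per the file headers and the methods, the authors deposited 1 list of RiboTaper ORFs per sample, in which a whole number per ORF, repeated on each exon, was read here as its P-site count, although no source names it. It was not normalized. The submitters' processing notes name cutadapt 2.10, Bowtie2 2.4.1, STAR 2.7.5c and SAMtools 1.10. The methods describe subsampling of alignments before ORF calling and do not say how the deep list relates to it. Coordinates are Release 6 and count from 1, and an outer edge can be 1 nt off.

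Exon lines were joined into ORFs, which were given to genes by position from a RefSeq table of 13962 protein-coding genes on the same assembly, with Python 3.11.15, pandas 2.3.3 and scipy 1.17.1. Depth was taken from the P-sites of ORFs found in every list, with each of their 1165 stop codons counted once. The lists as deposited held at least 6 P-sites per ORF and were not filtered further. All members were named, and of other pathway genes those with an ORF in all 5 lists, the 3 densest of each list in the deep list, and any antimicrobial peptide gene with an ORF. Genes whose values were not in that rule are given as counts or as examples chosen after their values were seen. Members and gene lists were chosen with earlier results of these data known. The ratio procedure was tested on simulated data with known 4-fold changes. The alternatives were other limits, depth measures and choices of ORF.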

Additional observations from a re-analysis of the deposited data

How the results depend on the processing

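With at least 20 P-sites required of an ORF, 3 members by the rule had one in the untreated A-RNaseI list and 3 in the untreated E-RNaseI list, in place of 5 and 7. At 1.5-fold in place of 2-fold, 2 members were higher with E-RNaseI than A-RNaseI in treated cells and 2 in untreated cells. Higher in treated than untreated cells were 2 with A-RNaseI and 1 with E-RNaseI. No share of all genes was computed at 20 P-sites or at 1.5-fold, so these counts do not set the members apart. Per nt of the called ORF, 0 members were past 2-fold higher with E-RNaseI in treated or untreated cells, and 0 were lower in treated cells with A-RNaseI, where the ratio of Tab2 turned from 0.491 to 1.10. Over the same transcript and stop codon, an alternative chosen after seeing the data, 0 members were past 2-fold higher with E-RNaseI in either comparison. There the ratio of PGRP-LC in treated cells was 0.798 in place of 2.79. It rested on 24 and 15 P-sites, and no interval was computed for it. The per-nt setting allows for the length of the ORF compared, and the same-transcript setting changes which ORF is compared. Depth from all ORFs, the deep list used for the standard one, identical ORFs in both lists, the longest ORF of a gene, coding ORFs only, and ORFs shared with a second gene changed no count of members by over 1.5 times and took no ratio beyond 2-fold to the other side of 1. Ratios near 1 did cross it, as that of Fadd between the RNases in treated cells, from 1.03 to 0.956 with depth from all ORFs, and that of Dredd between treated and untreated cells with E-RNaseI, from 1.35 to 0.991 with the deep list. No paired analysis was possible because each condition had 1 sample and no test was run. The few P-sites of PGRP-LC, Dredd, Tak1 and Tab2 in the untreated standard lists leave wide intervals.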
